A study of Caenorhabditis elegans with 6 samples.

Results

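The proteasome subunits of Caenorhabditis elegans were followed in embryos of the wild-type strain N2 and of the mutant strain yap-1(ys38). The members were all probe sets whose single gene symbol in the platform annotation starts with pas-, pbs-, rpt- or rpn- and a digit, a rule that uses no measured value. It gave 39 probe sets of 33 genes, out of 22548 probe sets that are not controls. The core particle was represented by 14 genes and the regulatory particle by 19. Each strain had 3 biological replicates with 1 Affymetrix C. elegans array each, and each replicate was total RNA of whole embryos freed from egg-bearing adults by bleaching, so an array pools many embryos whose stages the labels do not give. The labels name no allele or treatment shared by the 2 groups, and they do not state what the ys38 allele changes in yap-1, the worm counterpart of the Hippo pathway coactivator YAP. The study asked which genes the Hippo pathway controls in keeping cells polarised.

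The proteasome is the protease complex that degrades proteins tagged with ubiquitin. Its core particle is a barrel in which 2 outer rings of alpha subunits, encoded by the pas genes, gate the entrance and 2 inner rings of beta subunits, encoded by the pbs genes, hold the proteolytic sites. The regulatory particle caps the barrel. Its base carries a ring of ATPases, encoded by the rpt genes, that unfold substrates and thread them into the core, and its lid, made of rpn subunits, removes ubiquitin chains before the protein enters. In the early worm embryo, degradation by the proteasome clears maternal proteins at the passage from oocyte to embryo and paces the cell cycle.

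Values are MAS5 signals, probe set intensities on a linear scale that the authors scaled to the same trimmed mean in every array, so a change of total RNA per embryo cannot be seen, and in pooled embryos fewer cells of a type and less RNA per cell cannot be told apart. Signals of different probe sets are not comparable as levels of RNA, and only differences of the same probe set between arrays are compared. The median intensity was 118 to 133 in 5 arrays and 86.6 in wild type replicate 2, which the study excluded because it differed from its fellow replicates. The strains were therefore compared on the other 5 arrays (2 of wild type, 3 of the mutant), with wild type replicate 2 given beside them. Where values of 3 arrays are listed for a strain, they follow the replicate numbers 1, 2 and 3. The yap-1 probe set itself, whose place relative to the allele is not known and which therefore does not check the genotype, gave 267, 443 and 555 in wild type and 371, 260.4 and 302 in yap-1(ys38). All 20 embryo marker genes were measured, and 18 to 20 of them read above 53.5, the lowest mean intensity tested, in each array. The summed signal of these markers was 37365 to 48772. Signal of the 7 yolk and adult genes, listed as markers of carried-over adult material, varied between arrays. It summed to 7536, 13442 and 367 in wild type and to 4942, 1258 and 692 in yap-1(ys38). The source of this signal was not tested.

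Of the 39 probe sets, 38 of all 33 genes passed the filter on dim probe sets. The probe set left out was the second of rpn-2, which read 15.5 to 111 over the 6 arrays, while the other rpn-2 probe set read 1549 to 2245. A gene with several probe sets is given by its brightest. Only rpn-6.2, a paralog of the lid gene rpn-6.1, read near the filter, at 43.7 to 78.8, and its differences are uncertain in size. The other 32 genes read 267 or more in every array.

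No subunit gene passed the test between wild type and yap-1(ys38). Over the 5 arrays compared, the highest array was 1.1 times the lowest at rpn-1, at one end, and 2.05 times at pbs-2, at the other (median 1.31, beside 1.56 over all genes tested). The median log2 fold change of the 33 genes, yap-1(ys38) over wild type, was 0.0403, beside -0.0044 over all 10237 genes tested. Single genes spanned -0.25 to 0.24, with 22 above and 11 below 0, beside 49.1% of all genes above 0. In the test across all probe sets (limma, Benjamini-Hochberg adjustment), 0 of the 38 member probe sets passed an adjusted p of 0.05, as did 0 of all 13529 (0%), and the lowest unadjusted p of a member gene was 0.173. At an unadjusted p under 0.05 there were 0 of the 33 genes, against 0.938% of all genes. A fit that blocked on the replicate number called 12 probe sets of the whole table (0.0887%), 0 of them proteasome probe sets, and with all 6 arrays the same block called 0 of the whole table. The block on 5 arrays takes nothing from yap-1(ys38) replicate 2, whose wild-type partner was set aside. The methods' t-test at p at most 0.05 called 1 member, rpn-1, and 1.49% of all probe sets, and after Benjamini-Hochberg adjustment 0.

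The width of the intervals shows what size of difference the 5 arrays compared could hide. Wild type replicate 2, the highest array at 29 of the 33 genes, enters neither the intervals nor the spread given here. For 22 of the 33 genes the 95% confidence interval of the fold change lay within 1.5-fold in either direction, and for 32 within 2-fold, rpn-6.2 being the exception. Over all genes tested these shares were 24.5% and 73.6%. The spread within strains on these 5 arrays, as the median residual standard deviation on the log2 scale, was 0.159 for the proteasome genes and 0.269 for all genes. The same spread was 0.106 for the ribosomal proteins (72 of 74 within 1.5-fold), 0.142 for the TRiC chaperonin (6 of 8) and 0.179 for the ubiquitin genes described at the end (20 of 30).

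**Figure D1:**
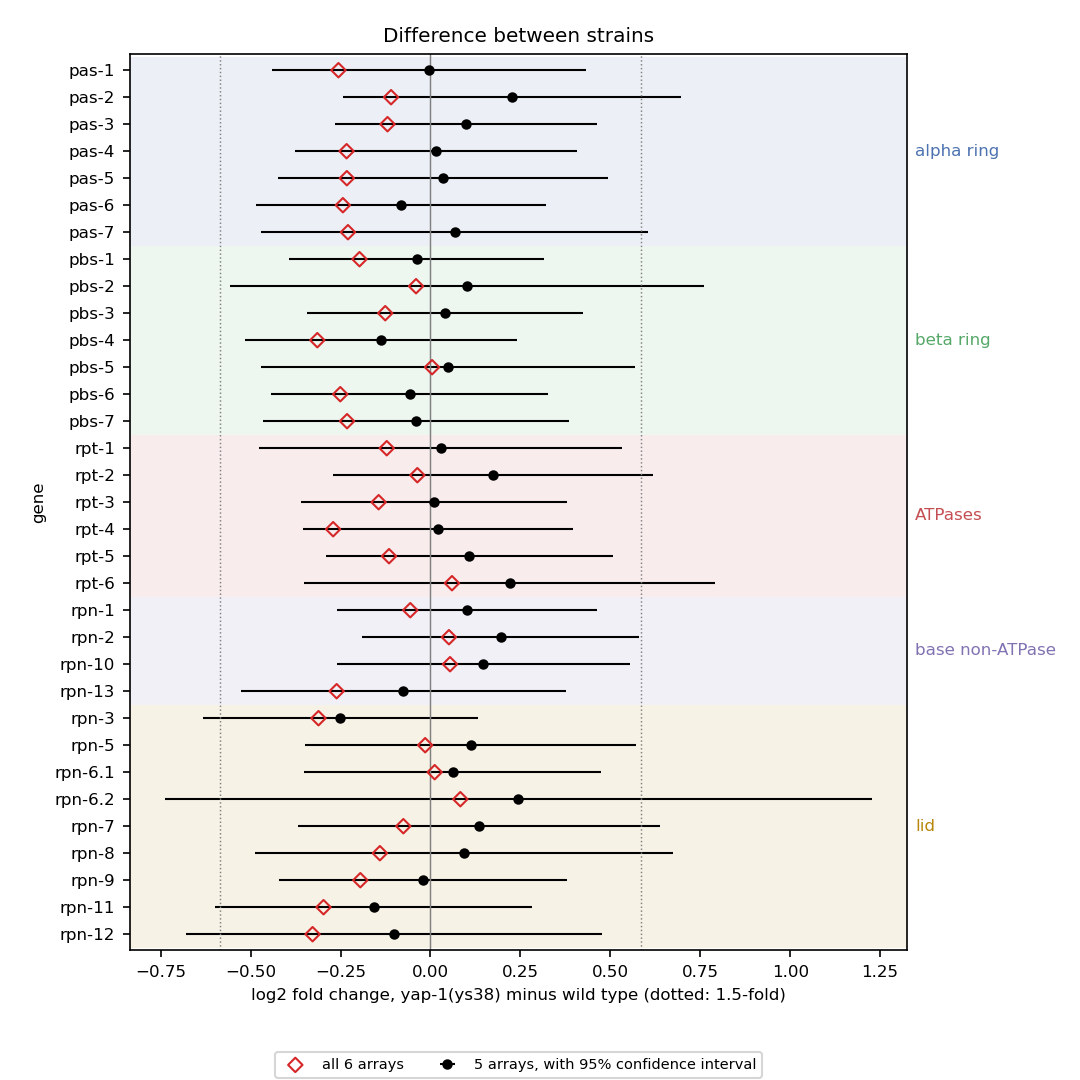
Log2 fold change of each proteasome gene, yap-1(ys38) minus wild type (x axis), by gene (y axis) and shaded by role. Black points are the fit on 5 arrays with 95% confidence intervals, open red diamonds the fit on all 6 arrays, and dotted lines mark 1.5-fold. Every interval of the 5-array fit includes 0, and 27 of 33 diamonds lie below 0.

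In the alpha ring, which gates the core, all 7 genes were measured and their log2 fold changes ran from -0.083 to 0.23, 5 above and 2 below 0. The upper end belonged to pas-2, which read 1253, 2719 and 1459 in wild type and 1302, 1847 and 1646 in yap-1(ys38). Its log2 fold change was 0.23 (95% confidence interval -0.24 to 0.70), and the strains overlapped, since yap-1(ys38) replicate 1 read below wild type replicate 3. Most even across the mutant arrays was pas-3, at 2588, 2588 and 2611, between the 2235 and 2629 of wild type replicates 1 and 3. The other 5 alpha genes differed by at most 0.083 on the log2 scale between the strains.

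The beta ring holds the proteolytic sites. pbs-1, counterpart of the caspase-like subunit, read 2815, 4244 and 3305 in wild type and 2946, 2921 and 3045 in yap-1(ys38), and the yap-1(ys38) arrays lay between the wild-type arrays compared, with a log2 fold change of -0.038 (95% confidence interval -0.39 to 0.32). pbs-2, counterpart of the trypsin-like subunit, read 1398, 1313 and 683 in wild type and 995, 1135 and 1021 in yap-1(ys38). Here wild type replicate 1 was 2.05 times wild type replicate 3, and the 3 yap-1(ys38) arrays lay between them. The log2 fold change of pbs-2 was 0.10 (95% confidence interval -0.56 to 0.76). Leaving out wild type replicate 1 gave 0.62, and leaving out replicate 3 gave -0.41. pbs-5, counterpart of the chymotrypsin-like subunit, showed the same order of the wild-type arrays, with 1726, 1507 and 1089.9 in wild type and 1498, 1489 and 1282 in yap-1(ys38). The yap-1(ys38) arrays again lay between wild type replicates 3 and 1, with a log2 fold change of 0.049 (95% confidence interval -0.47 to 0.57), which was 0.38 on leaving out wild type replicate 1 and -0.28 on leaving out replicate 3.

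The beta subunits pbs-3, pbs-4, pbs-6 and pbs-7 have no proteolytic activity of their own. pbs-4 had the lowest log2 fold change of the core particle, -0.14 (95% confidence interval -0.52 to 0.24), with signals of 1973, 2777 and 1869 in wild type and 1873, 1668 and 1704 in yap-1(ys38). yap-1(ys38) replicate 1 read between the wild-type arrays compared, and the other mutant arrays below both. pbs-3 and pbs-7 each had probe sets that differed in sign. The brighter probe set of pbs-3 read 1763, 2363 and 1588 in wild type and 1647, 1747 and 1771 in yap-1(ys38) (log2 fold change 0.0403), and the other read 748, 1409 and 939.7 in wild type and 768, 842 and 886 in yap-1(ys38) (-0.013). The brighter probe set of pbs-7 read 2012, 3402 and 2599.6 in wild type and 2286, 2436 and 1974 in yap-1(ys38) (log2 fold change -0.041), and the other read 2021, 2814 and 1974 in wild type and 2063, 2288 and 1871 in yap-1(ys38) (0.049). All 4 probe sets thus differed between the strains by less than their standard errors.

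All 6 ATPase genes of the base had log2 fold changes above 0, from 0.0098 for rpt-3 to 0.22 for rpt-6, beside 49.1% of all genes above 0, and 0 of them passed the test. With the replicate block rpt-1 and rpt-3 lay below 0, at -0.023 and -0.036, and with all 6 arrays 5 of the 6 did. rpt-6 read 318, 406 and 267 in wild type and 396, 298 and 330.4 in yap-1(ys38). Its difference was 0.22 (95% confidence interval -0.35 to 0.79), and yap-1(ys38) replicate 2 read between the wild-type arrays compared. Of the ATPase genes only rpt-5 had all 3 yap-1(ys38) arrays above both wild-type arrays compared, with 1286, 2037 and 1272 in wild type and 1299, 1478 and 1366 in yap-1(ys38), a log2 fold change of 0.11 (95% confidence interval -0.29 to 0.51). rpt-1 and rpt-2 had a pair of probe sets each, all above 0 (0.028 and 0.24 for rpt-1, 0.17 and 0.017 for rpt-2).

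The other base subunits are the scaffold proteins of rpn-1 and rpn-2 and the ubiquitin receptors of rpn-10 and rpn-13. rpn-2 read 1792, 2245 and 1549 in wild type and 1933, 1975 and 1817 in yap-1(ys38), and rpn-1 read 1954, 2692 and 1919 in wild type and 2114, 2021 and 2103 in yap-1(ys38). In both genes the yap-1(ys38) arrays all lay above wild type replicates 1 and 3, by a log2 fold change of 0.19 (95% confidence interval -0.19 to 0.58) and 0.10 (95% confidence interval -0.26 to 0.46), and wild type replicate 2 read higher than all of them. With rpt-5 these made 3 genes without overlap above, against 5.76% of all genes, and rpn-3 was the 1 gene without overlap below, against 5.25%, together 4 of 33 against 11%. rpn-10 read 2778, 2949 and 2127 in wild type and 2923, 2493 and 2677 in yap-1(ys38) at its brighter probe set, a log2 fold change of 0.15 (95% confidence interval -0.26 to 0.56). Its other probe set, at 727, 787 and 537 in wild type and 579, 661 and 567 in yap-1(ys38), gave -0.056, and in both the strains overlapped. rpn-13 read 1221, 1600.5 and 971 in wild type and 1135, 977 and 995 in yap-1(ys38), with overlap and a log2 fold change of -0.076 (95% confidence interval -0.53 to 0.38).

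Among the 9 lid genes the differences ran in both directions, 5 above and 4 below 0. rpn-3, a structural lid subunit, had the lowest log2 fold change of all members and read 2358, 2839 and 2655 in wild type and 2227, 1902 and 2197 in yap-1(ys38). The 3 mutant arrays read below the wild-type arrays, with a log2 fold change of -0.25 (95% confidence interval -0.63 to 0.13) that did not pass (limma, adjusted p = 0.9998). rpn-11, the metalloprotease that cuts ubiquitin chains from substrates, read 1190.3, 1531 and 1103 in wild type and 905, 1049.9 and 1139.6 in yap-1(ys38), with a log2 fold change of -0.16 (95% confidence interval -0.60 to 0.28). Its yap-1(ys38) replicate 3 lay between the wild-type arrays. rpn-12 read 876, 1648 and 1214 in wild type and 752, 1204 and 978 in yap-1(ys38), a log2 fold change of -0.10 (95% confidence interval -0.68 to 0.48) with arrays numbered 1 lowest in each strain. rpn-6.1, whose protein clamps lid and core together, read 1963, 1971 and 1607 in wild type and 1893, 2004 and 1679.8 in yap-1(ys38) and differed by 0.062 (95% confidence interval -0.35 to 0.47). Its dim paralog rpn-6.2 read 69.1, 76.9 and 43.7 in wild type and 78.8, 50.3 and 69.7 in yap-1(ys38), with a log2 fold change of 0.24 (95% confidence interval -0.74 to 1.23), the widest interval of the members. rpn-5, rpn-7, rpn-8 and rpn-9 lay between -0.021 and 0.13.

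Core and regulatory particle differed from each other by about the spread between single arrays of a strain. The median log2 fold change was 0.025 over the 14 core genes and 0.092 over the 19 regulatory genes, a difference of -0.067. For single arrays, the median deviation of the core minus that of the regulatory particle had a standard deviation within strains of 0.054. The 2 wild-type arrays compared lay furthest apart. Replicate 3 stood at 0.036 for the core and -0.073 for the regulatory particle, replicate 1 at -0.026 and -0.0069. Without wild type replicate 3 the difference in fold change was -0.012. Above 0 lay 8 of 14 core and 14 of 19 regulatory genes, beside 49.1% of all genes tested.

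The array that stood apart in the proteasome genes was wild type replicate 2. It read above both other wild-type arrays at 31 of 33 genes and below both at 0, whereas over all genes tested it was above at 41.2% and below at 41.2%. At 29 genes it was the highest of all 6 arrays, against 34% of all genes. The exceptions were pbs-2, pbs-5, rpn-6.1 and rpn-6.2. Of the 5 further probe sets tested for genes with several, 4 also had it highest, and at that of rpt-1 yap-1(ys38) replicate 2 read higher (2122 against 2059). Its median signal over the proteasome genes was 1.44 times the geometric mean of wild type replicates 1 and 3, with single genes from 1.1 times at pbs-5 to 2.01 times at pas-2. This is 1 array, so the difference has no replicate and no test.

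**Figure D2:**
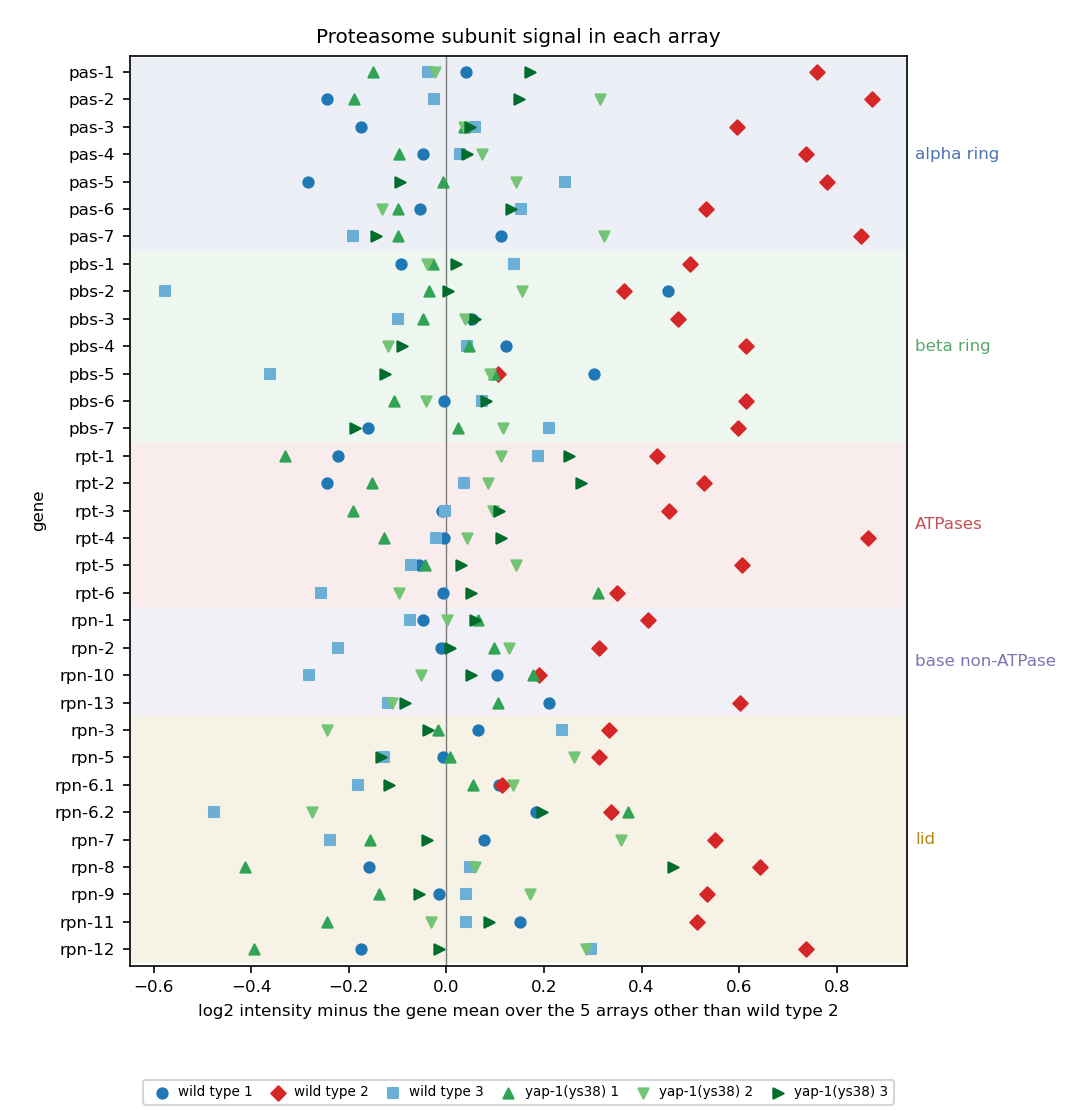
Log2 intensity of each proteasome gene in each array minus the gene's mean over the 5 arrays other than wild type replicate 2 (x axis), by gene (y axis), shaded by role. Red diamonds are wild type replicate 2, highest of the 6 arrays at 29 of 33 genes, while the other wild-type arrays (blue) and the yap-1(ys38) arrays (green) mix around 0.

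By position in the complex, the median signal of wild type replicate 2 relative to replicates 1 and 3 was 1.69 times for the alpha ring, 1.47 times for the ATPases, 1.41 times for the beta ring, 1.4 times for the lid and 1.37 times for the other base subunits. Wild type replicate 2 exceeded the other 5 arrays at all 7 alpha genes, all 6 ATPase genes and all 4 other base genes. It did so at 5 of 7 beta genes and 7 of 9 lid genes. Among the alpha genes its ratio was lowest at pas-6, 1.4 times wild type replicates 1 and 3. The differences between these groups were not tested. As examples, pas-7 read 664, 1108 and 539 in wild type and 574, 769.9 and 556 in yap-1(ys38), and rpt-4 read 2154, 3934 and 2127 in wild type and 1978, 2224 and 2334 in yap-1(ys38). Wild type replicate 2 stood above the range of the other arrays in both, at 1.85 and 1.84 times wild type replicates 1 and 3. In the beta ring pbs-4 and pbs-6 stood at 1.45 and 1.49 times, and pbs-5 and pbs-2 inside the range of wild type replicates 1 and 3. As a median deviation from the mean of the 5 other arrays, the core stood at 0.61 and the regulatory particle at 0.46 on the log2 scale, and the other 5 arrays at -0.041 to 0.056 and -0.073 to 0.084.

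The cytosolic ribosome and the TRiC chaperonin, a complex that folds actin and tubulin, gave other values in that array. The 74 cytosolic ribosomal protein genes tested had a median of 0.758 times wild type replicates 1 and 3, with 72 below both, and the 8 TRiC genes had 0.899 times, 2 above and 4 below. Over all genes the median log2 difference was 0.0021. After quantile normalization, which gives every array the same distribution of signals, the proteasome stood at 1.43, the ribosomal proteins at 0.928, TRiC at 1.01 and all genes at 1.06 times. Centring the arrays on their medians moved the median of all genes to 1.42 times, of the proteasome to 2.04 times, of the ribosomal proteins to 1.08 times and of TRiC to 1.28 times, so that the ribosomal proteins lay above 1 with this scaling, though below all genes, and TRiC lay above 1 with both scalings. The difference between these lists was not tested.

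**Figure D3:**
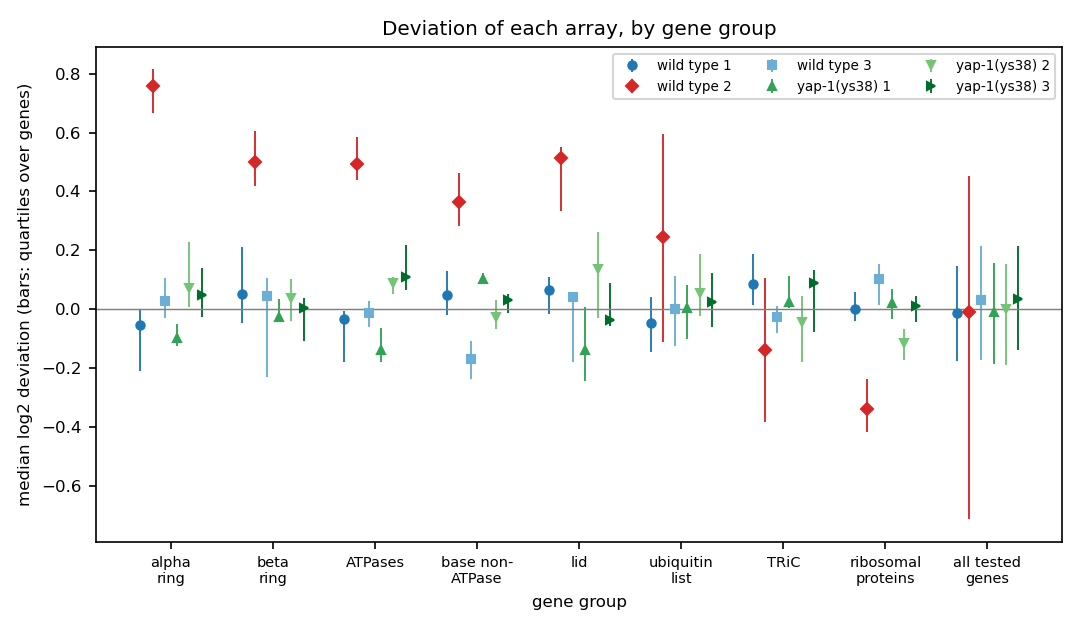
Median log2 deviation of each array from the gene's mean over the 5 arrays other than wild type replicate 2 (y axis) for each gene group (x axis), with bars from the lower to the upper quartile over genes. Wild type replicate 2 (red) stands above 0 in all 5 groups of proteasome genes and below 0 in the ribosomal proteins, which lie above 0 once arrays are centred on their medians.

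Measures of RNA and embryo material were read in each array. Averaged over 4 control transcripts, the log2 of 3-prime over 5-prime signal was 3.64 in wild type replicate 2, 2.68 and 3.74 in the other wild-type arrays and 2.86 to 3.07 in yap-1(ys38). Wild type replicate 3, with the highest ratio, had a median deviation over the proteasome genes of -0.022, and wild type replicate 1, with the lowest, of -0.0069 on the log2 scale. The yolk and adult genes summed highest in wild type replicate 2, as given above, with 7 of 7 above 53.5, and wild type replicate 1 also had 7 of 7. The 25 sperm genes measured summed to 8554 in replicate 2 and to 1354 to 6591 in the other arrays. Their part in the result was not tested.

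Arrays of the 2 strains with the same number deviated together over the probe sets tested, so the strains were also set against each other within each number. For number 1, yap-1(ys38) read above wild type at 13 of 33 proteasome genes (median log2 difference -0.075), against 48.8% of all genes. For number 3 it was 23 of 33 (median 0.064), against 50.6%. For number 2 it was 1 of 33, rpn-6.1, with a median of -0.48, against 51.3%. The count for number 2 follows from wild type replicate 2 being the highest array at 29 genes and is no separate result. The median deviation of yap-1(ys38) replicate 2 from the 5-array mean was 0.073 on the log2 scale, the highest of the 5 arrays other than wild type replicate 2, which stood at 0.53. The other 4 stood at -0.043 to 0.042. With arrays centred on their medians yap-1(ys38) replicate 2 stood at 0.14, and the median of all tested genes in that array at 0.071. After quantile normalization yap-1(ys38) replicate 2 stood at 0.054, beside 0.052 in yap-1(ys38) replicate 3. Across the probe sets tested both arrays numbered 2 deviated together (r = 0.345), and for the proteasome genes a shared effect was not tested.

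**Figure D4:**
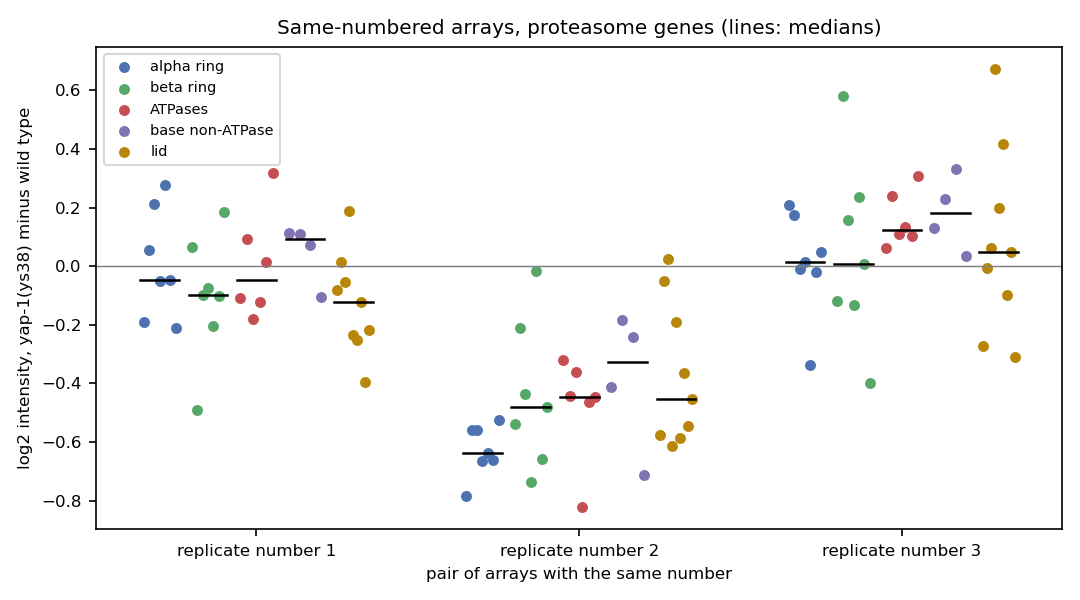
Log2 intensity of yap-1(ys38) minus wild type (y axis) for each proteasome gene within the arrays of the same replicate number (x axis), coloured by role, with black lines at the medians. Pairs 1 and 3 scatter around 0, and 32 of 33 genes lie below 0 in pair 2.

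With wild type replicate 2 in the fit most proteasome genes lay lower in yap-1(ys38). Of the 33 genes 27 lay below 0 and 6 above, the median log2 fold change was -0.14, and 0 genes had an unadjusted p under 0.05 (limma), against 0.781% of all genes. The median was -0.23 for the core and -0.12 for the regulatory particle. The direction of the median thus turned with 1 array.

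Genes around the proteasome were read from a list of 55 genes of ubiquitin conjugation and proteasome regulation, of which 30 were measured and all 30 tested. None passed the test (limma, 0 of 30 at an adjusted p under 0.05), 19 lay above and 11 below 0, beside 49.1% of all genes above 0, and the median log2 fold change was 0.048. The lowest p belonged to cul-3, a cullin scaffold of ubiquitin ligases, which read 634, 686 and 337 in wild type and 781, 721 and 689 in yap-1(ys38). The yap-1(ys38) arrays all lay above the wild-type arrays, wild type replicate 2 just below the mutant range, with a log2 fold change of 0.66 (95% confidence interval 0.017 to 1.30), the 1 gene of 30 with an unadjusted p under 0.05, against 0.938% of all genes, and its other probe set gave 0.08. hecd-1, a HECT-type ubiquitin ligase, read 473, 424 and 493 in wild type and 838, 538 and 571 in yap-1(ys38), a log2 fold change of 0.40 (95% confidence interval -0.17 to 0.97) with all mutant arrays above the wild-type ones. On the 5 arrays compared, 3 of the 30 genes had no overlap with yap-1(ys38) above, against 5.76% of all genes. With yap-1(ys38) below there were 0, against 5.25%. The segregase genes cdc-48.1 and cdc-48.2, whose ATPase extracts ubiquitinated proteins for the proteasome, gave 0.35 (95% confidence interval -0.17 to 0.88) and 0.16 (95% confidence interval -0.26 to 0.57). chn-1, the CHIP ubiquitin ligase, gave 0.28 (95% confidence interval -0.24 to 0.79). skn-1, which encodes the transcription factor that raises proteasome gene expression when proteasome function is impaired, read 846, 749 and 947 in wild type and 1136, 1071 and 959 in yap-1(ys38), with a log2 fold change of 0.23 (95% confidence interval -0.20 to 0.67), and wild type replicate 2 was the lowest of the 6 arrays there.

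In wild type replicate 2 this list was mixed, 18 genes above both other wild-type arrays and 8 below, with a median of 1.33 times. The following genes were chosen after their values were seen. ubh-4 and usp-14, the deubiquitinases that bind the regulatory particle, stood at 1.86 and 1.76 times wild type replicates 1 and 3, and dss-1, a small lid subunit outside the naming rule, at 1.5 times. Some genes of ubiquitin ligases and of the segregase stood as high, cul-1 at 1.84, rbx-1 at 1.74, npl-4.2 at 1.69 and cdc-48.1 at 1.68 times. Others stood lower, among them cdc-48.2 at 1.5, cul-3 at 1.49, chn-1 at 1.39, cul-2 at 1.15 and hecd-1 at 0.878 times. Also in this list, ddi-1 stood at 1.82 times, while sel-11, png-1, ubql-1, sel-1 and let-70 stood at 0.812 to 0.918 times. psme-3, the worm counterpart of a proteasome activator, stood at 1.08 times. ubq-1, the polyubiquitin gene, stood at 1.08, ubq-2, which encodes ubiquitin fused to a ribosomal protein, at 0.798, and uba-1, the ubiquitin-activating enzyme, at 1.09 times. In the RefSeq gene table of assembly WBcel235, rpn-12 is the neighbour of rad-23, which shuttles ubiquitinated proteins to the proteasome. In that array rpn-12 stood at 1.6 times and rad-23 at 0.999 times. The wild-type arrays of rad-23 were far apart, at 2824, 1874 and 1246, with replicate 2 between the others.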

How the data were processed

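Total RNA of whole embryos was hybridised to 1-colour Affymetrix arrays. Deposited intensities are MAS5 signals, globally scaled by the authors, per the series' design text and the submitters' processing notes; the trimmed mean is 500.1 in every array. Detection calls were not used. The 77 control probe sets were left out, values were log2-transformed, and 13529 probe sets with a mean above the 40th percentile were tested with limma 3.58.1 in R 4.3.3 (two-sided, eBayes with a trend in intensity, Benjamini-Hochberg over all of them, threshold 0.05), tried on simulated data. Names came from the platform annotation, and all 33 symbols matched the RefSeq table of WBcel235.

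Values in every array are printed for the catalytic beta genes, rpn-11, rpn-10, rpn-13 and rpn-6.1, the 4 highest and 4 lowest fold changes, genes whose probe sets differ in sign, and, of the ubiquitin list, genes among the 6 lowest p. pas-7, rpt-4, rpt-5, rpn-1 and the genes said to be so were chosen after their values were seen. The members and lists were chosen with earlier results of these data known.

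Replicate numbers come from the sample titles. Deviations from the strain means correlated at 0.364, 0.345 and 0.445 between same-numbered arrays and at 0.015 or less otherwise. Same-numbered arrays were therefore also set against each other as pairs and used as the block of an alternative fit. The fit reported, with its intervals and p-values, was unpaired. What the numbers mark is not stated. Alternatives covered the arrays, block, normalization, filter, floor, variance model, test, probe sets and leaving out replicates. Sequences were not used here.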

Additional observations from a re-analysis of the deposited data

How the results depend on the processing

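Across the 14 other fits and, for genes with several probe sets, their mean, 467 values were computed for the 33 genes. Of these 388 kept their direction, 79 at 27 genes changed sign, and 0 had an adjusted p under 0.05 (limma, lowest 0.745). No member was called in the comparison reported, so a change of sign is not the loss of a call. With all 6 arrays the log2 fold change was -0.11 for pas-2, -0.12 for pas-3, -0.23 for pas-4, -0.23 for pas-5, -0.23 for pas-7, -0.0402 for pbs-2, -0.13 for pbs-3, -0.12 for rpt-1, -0.037 for rpt-2, -0.14 for rpt-3, -0.27 for rpt-4, -0.12 for rpt-5, -0.056 for rpn-1, -0.015 for rpn-5, -0.075 for rpn-7 and -0.14 for rpn-8, the same with the replicate block added. With the replicate block on the 5 arrays, which by construction equals leaving out yap-1(ys38) replicate 2, it was 0.00804 for pas-1, -0.018 for pas-4, -0.0302 for pas-5, -0.082 for pas-7, -0.023 for rpt-1, -0.036 for rpt-3 and -0.017 for rpn-7. Median centring gave -0.0067 for pas-4 and -0.012 for rpt-3, and the mean of both probe sets 0.0041 for pbs-7. Leaving out each replicate in turn gave -0.089 to 0.071 for pas-1, -0.018 to 0.22 for pas-3, -0.023 to 0.067 for pas-4, -0.23 to 0.30 for pas-5, -0.19 to 0.0202 for pas-6, -0.084 to 0.22 for pas-7, -0.15 to 0.077 for pbs-1, -0.41 to 0.62 for pbs-2, -0.035 to 0.12 for pbs-3, -0.28 to 0.38 for pbs-5, -0.23 to 0.14 for pbs-7, -0.18 to 0.23 for rpt-1, -0.042 to 0.11 for rpt-3, -0.029 to 0.0902 for rpt-4, -0.045 to 0.34 for rpn-10, -0.24 to 0.089 for rpn-13, -0.083 to 0.21 for rpn-6.1, -0.086 to 0.57 for rpn-6.2, -0.024 to 0.29 for rpn-7, -0.12 to 0.32 for rpn-8, -0.11 to 0.044 for rpn-9 and -0.34 to 0.13 for rpn-12. The median of the proteasome genes was -0.14 with all 6 arrays, also with the replicate block, and 0.0033 to 0.088 without single replicates. The core minus regulatory difference was -0.11 to -0.012 without single replicates. Over all probe sets the replicate block called 12 on 5 arrays and 0 on all 6, and leaving out single replicates called 0 to 3, and the methods' t-test at p at most 0.05 called 202 over all probe sets and 1 of the proteasome. Median centring shifts all values of an array by the same amount. It put the deviation of wild type replicate 2 over the proteasome genes at 1.05 in place of 0.53, and over all tested genes at 0.51 in place of -0.0087. The cause of the other changes was not tested. The replicate block changed no call of a proteasome gene. Quantile normalization changed the sign of 0 genes. The filter settings (the one at the 60th percentile left 32 genes) and the intensity trend do not enter a gene's log2 fold change. The floor of 32 changed none either, since no tested member read below it. Values from these settings, counted among the 388, could therefore not have changed sign. Alternatives for wild type replicate 2 were added after seeing the data. The number of arrays limits the precision.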
